A study of Mus musculus with 10 samples.

Results

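The plasma apolipoproteins are the protein parts of the lipoprotein particles that the liver and intestine release into blood. The genes were taken by symbol from the deposited table, and 10 of its 24016 rows were members: Apoa1, Apoa2, Apoa4, Apoa5, Apob, Apoc1, Apoc2, Apoc3, Apoe and Apoh. All 10 were found, each as 1 row, and all 10 passed the filter on low values. The study asked what VEGF gene transfer changes in tissue, and RNA was sequenced from the livers of 10 male C57/Bl6 mice aged 8–12 weeks. In the AdVEGF group, 5 mice had received a serotype 5 adenovirus that expresses VEGF-A165 from the CMV promoter, which is active in many cell types. In the AdCMV group, 5 mice had received the empty adenovirus that carries the promoter and no transgene, so that both groups had been exposed to the vector. The livers were perfused and collected on day 6 after injection into the tail vein, and ribosomal RNA was depleted before sequencing. The labels describe the 5 libraries of each group as biological replicates.

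Lipoproteins carry triglyceride and cholesterol, which do not dissolve in plasma, inside a shell of phospholipid and apolipoproteins. Apolipoprotein B stays with its particle for life, whereas the A, C and E apolipoproteins exchange between particles and act as structural proteins of high density lipoprotein (HDL), as activators or inhibitors of the enzymes that remove lipid, or as ligands of hepatic receptors. In mice the hepatocyte is the main source of most of them, and several of the genes lie side by side in the genome. In bulk liver RNA, fewer cells of a type and less RNA per cell cannot be told apart.

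The apolipoprotein transcripts changed unequally after VEGF gene transfer. On the scale of the deposited values, Apoa1, Apoa4 and Apoa5, neighbours on chromosome 9, were upregulated in the AdVEGF group, by 2.26-fold, 2.91-fold and 2.96-fold, and after median-ratio scaling between libraries only Apoa5 was called (2.24-fold). Apoa2 and Apob, the other main structural proteins of HDL and of the triglyceride-rich particles, had fold changes of 0.937 and 0.927 and were not called, and the Apoe, Apoc1 and Apoc2 genes of the chromosome 7 cluster lay in between, at 1.34-fold to 1.56-fold. In all, 3 of the 10 genes were called higher and 0 lower with limma on log2(RPKM + 0.1), where a call needs both an adjusted p under 0.05 (Benjamini-Hochberg) and a log2 fold change (log2FC) beyond 1 in either direction. With voom on the recovered reads the count called lower was also 0. At an unadjusted p under 0.05 it was 0 as well, but the share of all rows at that threshold was not counted. Among all 13933 rows tested, 13.0% were called higher and 1.54% lower, and by the adjusted p alone 2.23% were lower, among them 0 of the 10 genes. RPKM is the number of reads on a transcript divided by its length and by the mapped tags of the library. Fold changes on the log2(RPKM + 0.1) scale can differ from ratios of the group means, which were 3.58 for Apoa4 and 1.74 for Apoc2. The share of 3 in 10 is a description beside that of all rows.

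**Figure D1:**
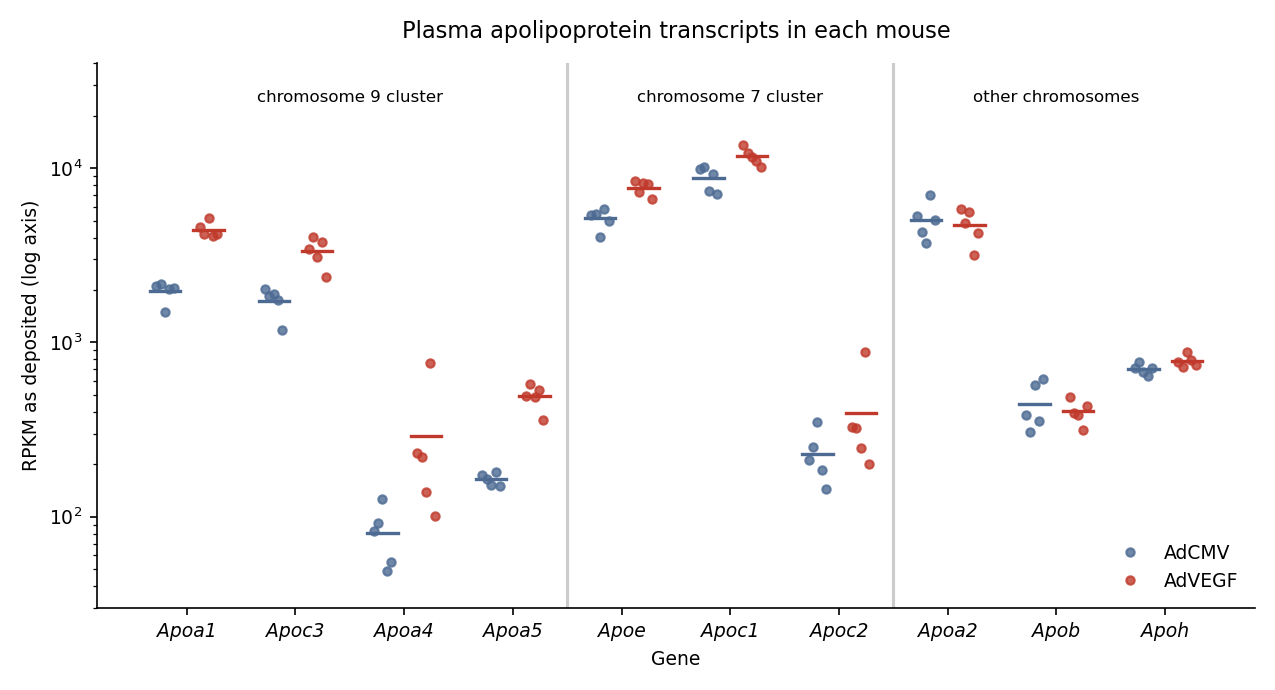
Deposited RPKM (log axis) of the 10 apolipoprotein genes in each of 10 livers, with each point a mouse and each bar the mean of 5 mice. The AdVEGF points of Apoa1, Apoc3 and Apoa5 lie wholly above the AdCMV points, as do those of Apoe, while Apoa2, Apob and Apoh overlap between the groups.

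The libraries held 5758959 to 13494000 mapped tags in the AdCMV group and 5596564 to 8133954 in the AdVEGF group, and each apolipoprotein had between 527 and 92240 reads in a library. The Mup genes, a family of urinary proteins made by hepatocytes, held 36.6% ± 12.2 (SD, n = 5) of the reads summed over all rows in control livers. In AdVEGF livers they held 16.3% ± 7.92. The median log2FC over all 13933 rows was 0.38. Median-ratio scaling between libraries brings this median near 0 by construction, and it was then -0.0044. Values below are on the deposited scale unless median-ratio scaling is named. Vegfa was at 18.1 ± 3.49 RPKM (SD, n = 5) in AdCMV and 31.8 ± 4.65 RPKM in AdVEGF livers with no overlap, and whether reads of the transgene reach this row was not tested. All 10 hepatocyte markers were detected, at a summed level of 9573 to 15520 RPKM in AdCMV and 20282 to 24527 RPKM in AdVEGF livers, and most of the sum was Alb (mean 7716 and 16667 RPKM). Of these markers Alb was called higher and 0 lower as deposited, and after median-ratio scaling 0 were higher and Tdo2 was lower (log2FC -1.08). The 13 endothelial markers rose in all 13 cases, with a summed level of 59.3 to 109 RPKM in AdCMV and 416 to 514 RPKM in AdVEGF livers. Of 12 Kupffer cell and macrophage markers 3 rose, and 2 after median-ratio scaling (164 to 368 RPKM against 331 to 511 RPKM summed), of 8 stellate cell markers 7 rose (71.6 to 115 RPKM against 178 to 349 RPKM), of 4 cholangiocyte markers 1 rose (24.2 to 53.6 RPKM against 281 to 726 RPKM, nearly all of it Spp1), of 5 erythroid markers 0 were called, and of 5 T and NK cell markers 4 fell, and 5 after median-ratio scaling. The part of these shifts in the values of the apolipoproteins was not tested.

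Of the 10 genes, 7 sit in a pair of clusters. On chromosome 9 (mm9), Apoa1 (NM_009692, 46036713 to 46038552, plus strand), Apoc3 (NM_001289833, 46041133 to 46043382, minus strand), Apoa4 (NM_007468, 46048927 to 46051541, plus strand) and Apoa5 (NM_080434, 46076691 to 46080002, plus strand) span 43.3 kb. On chromosome 7, Apoc2 (NM_001277944, 20256928 to 20263290), Apoc1 (NM_001110009, 20274829 to 20278008) and Apoe (NM_009696, 20281593 to 20284515), all on the minus strand, span 27.6 kb, with Apoc4 between Apoc2 and Apoc1. Apoa2 (NM_013474) lies on chromosome 1 at 173155185 to 173156510, Apob (NM_009693) on chromosome 12 at 7984483 to 8023645, and Apoh (NM_013475) on chromosome 11 at 108256611 to 108275710, all on the plus strand. The 4 genes of the chromosome 9 cluster had log2FC values from 0.94 to 1.57 with a median of 1.36, and all 4 had an adjusted p under 0.05, a threshold passed in the higher direction by 21.9% of all rows. The 3 genes of the chromosome 7 cluster had log2FC values from 0.42 to 0.64 with a median of 0.59, and 0 of them passed it. The 3 genes outside the clusters lay between -0.11 and 0.14. The median over the 10 genes was 0.62, and 7 of them lay above the median of all genes. After median-ratio scaling the medians were 0.96 for the chromosome 9 cluster, 0.19 for the chromosome 7 cluster and -0.50 for the genes outside. On that scale only Apoa5 had an adjusted p under 0.05.

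RefSeq promoter windows (GRCm38.p6) were at hand for 8 of the 10 genes. The sequence upstream of the start is shown for the 3 genes of the chromosome 9 cluster called higher on the deposited scale. It is also shown for Apoc2, whose level followed that of Apoa4 from mouse to mouse as described below. Each reads 5′ to 3′ on the strand of the gene and ends at the base before the annotated start, and capitals mark matches to the motifs searched on both strands.
Apoa1, chr9:46228380-46228629, plus strand: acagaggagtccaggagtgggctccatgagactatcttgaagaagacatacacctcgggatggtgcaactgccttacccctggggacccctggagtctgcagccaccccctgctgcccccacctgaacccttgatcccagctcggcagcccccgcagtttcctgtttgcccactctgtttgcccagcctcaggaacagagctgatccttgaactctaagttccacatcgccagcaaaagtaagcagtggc
Apoa4, chr9:46240594-46240843, plus strand: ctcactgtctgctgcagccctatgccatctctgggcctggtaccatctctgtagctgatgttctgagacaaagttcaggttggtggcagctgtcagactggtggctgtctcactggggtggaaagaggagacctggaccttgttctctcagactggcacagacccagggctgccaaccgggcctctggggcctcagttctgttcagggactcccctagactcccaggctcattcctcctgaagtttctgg
Apoa5, chr9:46268358-46268607, plus strand: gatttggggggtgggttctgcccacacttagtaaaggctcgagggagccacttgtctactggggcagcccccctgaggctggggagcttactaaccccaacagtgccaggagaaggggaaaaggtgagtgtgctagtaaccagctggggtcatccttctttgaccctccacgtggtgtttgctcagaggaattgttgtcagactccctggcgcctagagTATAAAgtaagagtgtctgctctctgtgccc
Apoc2, chr7:19677942-19678083, minus strand: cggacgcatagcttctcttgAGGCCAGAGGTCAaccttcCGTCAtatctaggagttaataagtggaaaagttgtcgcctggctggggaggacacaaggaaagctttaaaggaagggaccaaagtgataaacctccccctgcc
The Apoc2 window is given to the border of Apoc4, 142 bases, and RefSeq also lists a longer locus, Gm44805, that runs across Apoc4 and Apoc2. The motifs searched were TATAAA, known as the TATA box, the CCAAT box, the nuclear receptor half-site AGGTCA, the cyclic AMP response half-site TGACG, and a direct repeat of loose half-sites known as DR1. The DR1 search took GGNCA after any base, and then, past any 1 base, the letters AGGNCA, so that it can overlap a match to the nuclear receptor half-site. Of 32536 RefSeq windows of 250 bases, 12.3% held the TATA box, 33.8% the CCAAT box, 14% the nuclear receptor half-site, 0.701% the direct repeat and 17.9% the cyclic AMP half-site. Apoa5 held the TATA box, beginning 31 bases before the start. Apoc2 held the direct repeat as AGGCCAGAGGTCA, beginning 122 bases before the start and ending in the nuclear receptor half-site, and the cyclic AMP half-site as CGTCA at 103 bases. The Apoa1 and Apoa4 windows held none of the 5 motifs. Genes that were not called held such motifs too. The TATA box was in windows of Apoa2, Apob and Apoe, and the nuclear receptor half-site in windows of Apoa2 and Apoh. Windows of Apoa2 also held the CCAAT box and the cyclic AMP half-site. A match is a description of the sequence, not a binding site or a cause. Other forms of these motifs were not searched, so the lack of a match does not mean the lack of a site.

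Per length, the levels of the 10 genes spread widely in control livers. Apoc1 stood first with 8758 ± 1417 RPKM (SD, n = 5), above Apoe in all 5 mice, and was between the 4th and the 19th most abundant of all rows in every library of the study. Apoe with 5150 ± 693 RPKM and Apoa2 with 5071 ± 1245 RPKM were not separable from each other, as Apoe was higher in only 3 of 5 mice. Apoa1 (1977 ± 271 RPKM) and Apoc3 (1739 ± 330 RPKM) followed with overlapping ranges, then Apoh (706 ± 49.2 RPKM), Apob (446 ± 138 RPKM), Apoc2 (228 ± 77.7 RPKM), Apoa5 (164 ± 13.3 RPKM) and Apoa4 (81.1 ± 31.5 RPKM). The ranges of Apob and Apoc2, and of Apoc2 and Apoa5, also overlapped. In the AdVEGF livers the order of the means differed only in that Apoa5 (491 ± 83.1 RPKM) stood before Apob (402 ± 63.1 RPKM) and Apoc2 (396 ± 278 RPKM), with overlapping ranges. Apoa2 was above Apoa1 in 4 of 5 AdVEGF livers and in 5 of 5 controls.

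Apoa1 and Apoa2 are the main structural proteins of HDL, and Apoa1 also activates the cholesterol-esterifying enzyme of plasma. Apoa1 was at 2116, 2174, 1502, 2038 and 2055 RPKM in the 5 AdCMV livers and at 4627, 4197, 5146, 4059 and 4186 RPKM in the 5 AdVEGF livers. Every AdVEGF liver was thus above every AdCMV liver, and AdCMV replicate 3 stood below the rest of its group. Its log2FC was 1.17 ± 0.23 (SE, adjusted p = 0.00129, limma; 95% interval 0.69 to 1.66). Median-ratio scaling gave a log2FC of 0.77 with an adjusted p of 0.0753, so Apoa1 was no longer called, although the groups still did not overlap. The gene was called when any 1 of the 10 mice was left out of the fit on deposited values. Apoa2 was at 5302, 4292, 3701, 6985 and 5074 RPKM in AdCMV and at 5863, 4829, 5606, 3196 and 4255 RPKM in AdVEGF livers. These ranges overlapped almost wholly, and the log2FC of -0.09 had a 95% interval from -0.67 to 0.49, which leaves room for a change of either sign. After median-ratio scaling it was -0.50 with an interval from -1.29 to 0.30 (adjusted p = 0.363, limma).

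Apob encodes the protein that holds very low density lipoprotein together. Apob was at 382, 308, 568, 353 and 618 RPKM in AdCMV and at 485, 393, 383, 315 and 433 RPKM in AdVEGF livers. Controls 3 and 5 were the highest of all 10 mice and the other 3 controls lay within the range of the AdVEGF livers or just below it. The log2FC was -0.11 ± 0.23 (SE, adjusted p = 0.746, limma), and -0.51 with an adjusted p of 0.0745 after median-ratio scaling. Mttp, which loads lipid onto the Apob protein, averaged 44.3 ± 14.5 RPKM in AdCMV and 28.8 ± 6.09 RPKM in AdVEGF livers. Its log2FC was -0.58 (adjusted p = 0.0789, limma) as deposited and -0.98 (adjusted p = 0.00122) after median-ratio scaling, below the fold threshold on both scales. Apobec1, the enzyme that edits the Apob transcript, had a log2FC of 0.42 (adjusted p = 0.228) as deposited and 0.02 (adjusted p = 0.955) after median-ratio scaling.

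Apoa5 and Apoc2 promote the removal of triglyceride by lipoprotein lipase, and Apoc3 inhibits it. Apoa5 was at 173, 165, 153, 181 and 150 RPKM in AdCMV and at 495, 581, 489, 534 and 358 RPKM in AdVEGF livers. The lowest AdVEGF liver was thus well above the highest control. The log2FC of 1.57 ± 0.19 (SE) had an adjusted p of 1.31e-05 (limma), and after median-ratio scaling it was 1.16 with an adjusted p of 0.0017 and again no overlap. Apoa5 was the only gene of the 10 that was called under each of the 3 other scalings tried (median-ratio, upper quartile, library totals without the Mup genes). It was also called in each of the 10 fits that left out a mouse, and the call was lost only with treat, a test that the change exceeds the threshold itself (adjusted p = 0.105).

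Apoc3 was at 2018, 1852, 1907, 1741 and 1176 RPKM in AdCMV and at 3439, 4005, 3083, 3754 and 2374 RPKM in AdVEGF livers. The groups did not overlap, and replicate 5 was the lowest liver of both. The log2FC of 0.94 ± 0.25 (SE) passed the test (adjusted p = 0.0116, limma) but not the fold threshold. It passed both without AdVEGF replicate 5, at 1.06, and was 0.54 (adjusted p = 0.2) after median-ratio scaling, where the groups overlapped. Apoc2 was at 210, 251, 348, 186 and 144 RPKM in AdCMV and at 326, 321, 249, 884 and 200 RPKM in AdVEGF livers. Only AdVEGF replicate 4 lay above the range of the controls. The log2FC of 0.64 had an interval from -0.07 to 1.36 (adjusted p = 0.168, limma), and it was 0.30 without that mouse.

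Apoa4, which takes part in triglyceride transport and is made by the intestine as well as by the mouse liver, varied most. It was at 82.9, 92, 127, 48.7 and 55.1 RPKM in AdCMV and at 234, 220, 138, 759 and 101 RPKM in AdVEGF livers. Of the AdVEGF livers, 4 were above all controls and replicate 5 was below the highest control. The log2FC was 1.54 ± 0.42 (SE, adjusted p = 0.0131, limma). It was 1.10 without AdVEGF replicate 4 and still called (adjusted p = 0.0158), but 1.14 with an adjusted p of 0.0727 after median-ratio scaling and 0.71 (adjusted p = 0.0805) with both changes.

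Apoe is the ligand through which remnant particles bind hepatic receptors, and Apoc1 interferes with that uptake and with lipid transfer. Apoe was at 5375, 5490, 4037, 5853 and 4994 RPKM in AdCMV and at 8393, 7322, 8254, 8122 and 6617 RPKM in AdVEGF livers. The groups did not overlap on the deposited scale, as was the case in the same direction for 14.3% of all rows and for 4 of the 10 apolipoproteins. In the other direction 1.29% of all rows and 0 of the 10 did not overlap. The log2FC of 0.59 ± 0.25 (SE) did not pass the test (adjusted p = 0.0916, limma). After median-ratio scaling it was 0.19 (adjusted p = 0.729) and the groups overlapped. Apoc1 was at 7101 to 10113 RPKM with a median of 9277 in AdCMV and at 10091 to 13539 RPKM with a median of 11587 in AdVEGF livers. Its ranges touched at 1 pair of mice, and its log2FC was 0.42 (adjusted p = 0.25, limma) as deposited and 0.02 (adjusted p = 0.979) after median-ratio scaling. Apoh, or beta-2-glycoprotein I, binds phospholipid and is a minor lipoprotein component. It was the most even of the 10 genes, at 646 to 777 RPKM in AdCMV and 724 to 876 RPKM in AdVEGF livers, with log2FC values of 0.14 (adjusted p = 0.593) as deposited and -0.26 (adjusted p = 0.385) after median-ratio scaling.

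**Figure D2:**
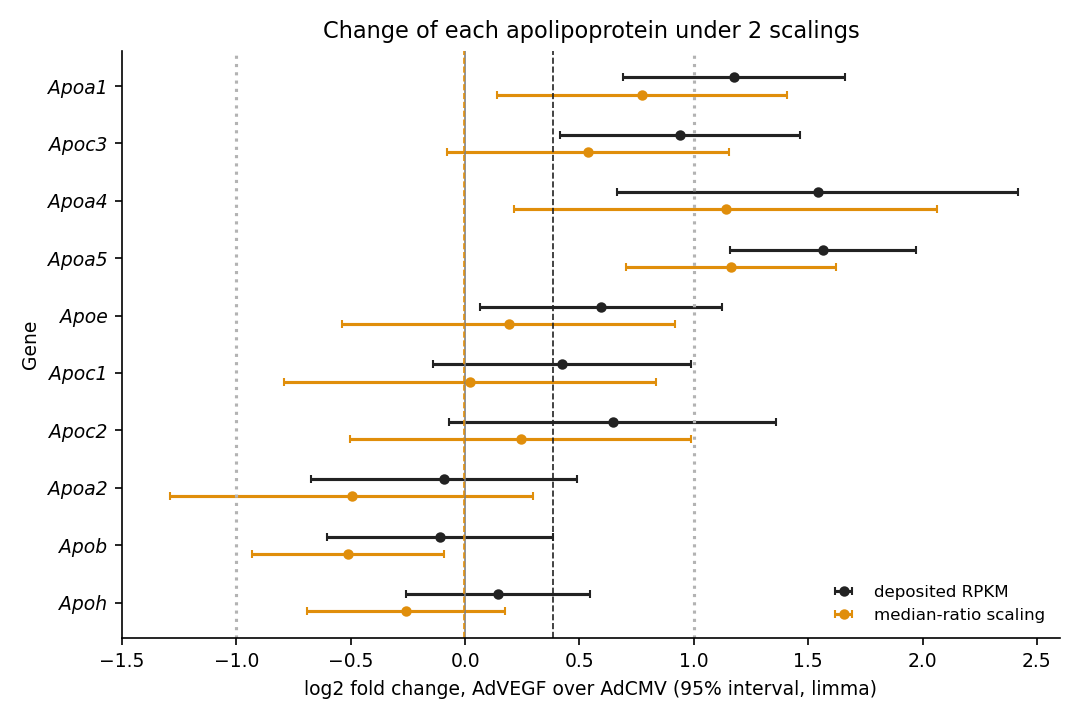
Log2 fold change of each apolipoprotein, AdVEGF over AdCMV, with 95% intervals from limma (n = 5 per group), for deposited RPKM (black) and after median-ratio scaling (orange). Dashed lines mark the median of all genes on each scale (0.38 and -0.0044), dotted lines the fold thresholds, and Apoa5 has the highest lower bound on both scales.

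Median-ratio scaling divides each library by 1 factor. By construction it therefore lowered each of the 10 log2FC values by about the shift of the median gene and kept their order. On that scale 1 of the 10 genes, Apoa5, was called higher and 0 lower, against 7.77% and 3.14% of all rows. By the adjusted p alone the counts were also 1 and 0, against 12.7% and 10.3%, and at an unadjusted p under 0.05 Apob was the only lower gene. AdVEGF livers lay wholly above controls for 2 of the 10 genes, Apoa1 and Apoa5, against 10.6% of all rows, and wholly below for 0, against 7.16%. The median over the 10 genes was 0.22. The reads of the 10 genes together made up 2.32% ± 0.107 (SD, n = 5) of the library total in AdCMV and 3.13% ± 0.251 in AdVEGF livers. Of the reads summed over all rows, which exceed the library total, they made up 2.11% ± 0.093 and 3.01% ± 0.268. Of those summed reads outside the Mup genes they made up 3.42% ± 0.606 and 3.61% ± 0.267. That last difference of 0.188 percentage points was smaller than the spread between mice.

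Ratios of 2 genes within a library do not depend on the scaling between libraries, and 7 were tested with two-sided exact permutation tests over the 252 splits of 10 mice, where the smallest possible p is 0.00794. The Apoa2 to Apoa1 ratio was 2.51, 1.97, 2.46, 3.43 and 2.47 in AdCMV and 1.27, 1.15, 1.09, 0.787 and 1.02 in AdVEGF livers. Control livers thus held at least 1.97 Apoa2 transcripts per Apoa1 transcript by this measure, and AdVEGF livers at most 1.27. The ratio fell by 1.27 on the log2 scale (exact p = 0.00794, 0.0278 adjusted over the 7 ratios). The Apoa1 to Apob ratio was 5.54, 7.06, 2.65, 5.77 and 3.33 in AdCMV and 9.54, 10.7, 13.4, 12.9 and 9.66 in AdVEGF livers. It rose by 1.28 on the log2 scale with no overlap (exact p = 0.00794, adjusted 0.0278). Apoa1 is part of both ratios, so the 2 results are not independent. With any 1 AdVEGF mouse left out, both adjusted values became 0.0556, and with any 1 AdCMV mouse left out both were 0.0278. With the two-sided p taken instead as the doubled one-sided p, both were 0.0556 without any 1 mouse of either group. Neither ratio changed direction in any of these tests. In both ratios the groups did not overlap, so with fewer mice these values lie at the lowest steps that the splits allow. The step from 0.0278 to 0.0556 is thus no measure of a weaker difference.

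Of the 5 ratios within the clusters, 0 passed the adjustment. The Apoa5 to Apoa1 ratio was 0.0842 ± 0.0115 (SD, n = 5) in AdCMV and 0.111 ± 0.0229 in AdVEGF livers, a log2 difference of 0.39 (exact p = 0.0476) that did not pass the adjustment (0.111). The Apoc3 to Apoa1 ratio was 0.9 ± 0.251 and 0.758 ± 0.179, a log2 difference of -0.24 (exact p = 0.357), and the Apoa4 to Apoa1 ratio differed by 0.37 (exact p = 0.571) and changed sign without AdVEGF replicate 4, to -0.11. In the chromosome 7 cluster the Apoc1 to Apoe ratio was 1.7 ± 0.192 in AdCMV and 1.51 ± 0.132 in AdVEGF livers, a log2 difference of -0.17 (exact p = 0.111). The Apoc2 to Apoe ratio differed by 0.05 (exact p = 0.897) and reached -0.27 without AdVEGF replicate 4.

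**Figure D3:**
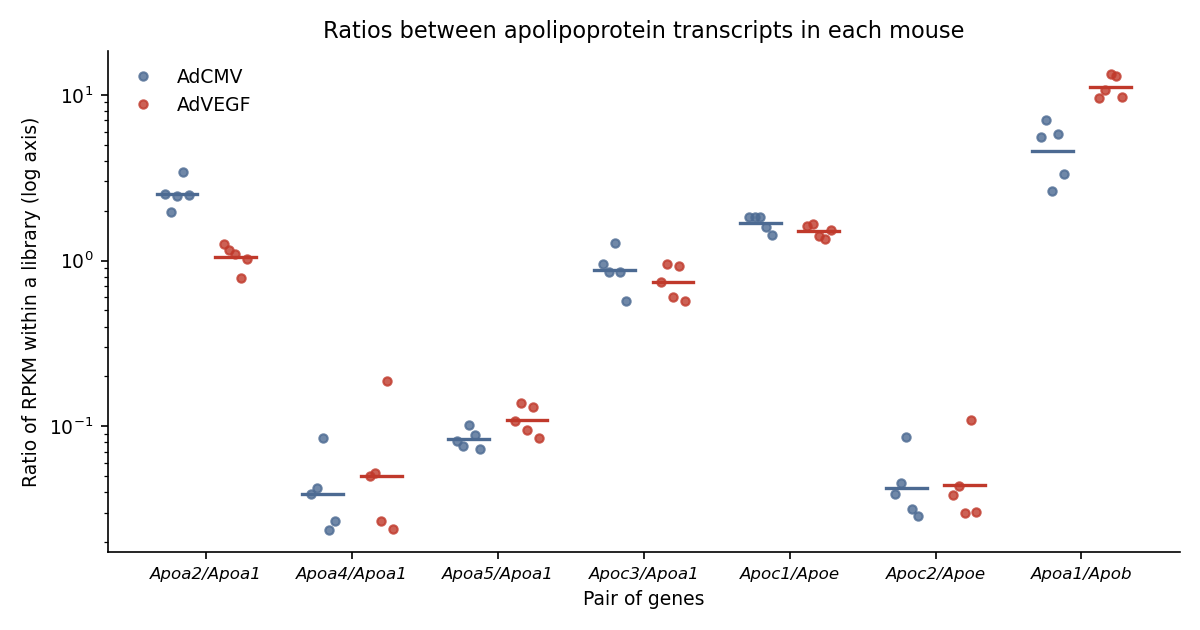
Ratio of RPKM of 7 pairs of genes in each of 10 livers (log axis), with each point a mouse and each bar the geometric mean of 5 mice. The Apoa2/Apoa1 points of the AdVEGF livers (0.787 to 1.27) lie below all controls (1.97 to 3.43), the Apoa1/Apob points (9.54 to 13.4) above all controls (2.65 to 7.06), and the other 5 pairs overlap.

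From mouse to mouse, Apoa4 and Apoc2, which lie on different chromosomes, varied together. In deposited RPKM, both were highest in replicate 4 of the AdVEGF group, followed by replicates 1, 2, 3 and 5 in that order. In the AdCMV group both were highest in replicate 3, followed by 2 and 1, and only the order of the lowest pair, 4 and 5, differed. Over the 10 mice, taken as deviations from the group means after median-ratio scaling, Pearson's r was 0.957 and Spearman's rho 0.855, and r was 0.878 without AdVEGF replicates 4 and 5, the pair farthest from the median of Apoa4. Both values of a mouse come from the same library, and this pair was chosen after its values were seen. Apoa1 did not share the order, as the same measure was -0.22 for Apoa4 and Apoa1 and 0.953 for Apoa1 and Apoe. Such closeness between chromosomes was not particular to Apoa4 and Apoc2. Pearson's r was 0.967 for Apoa1 and Apoh and 0.936 for Apoe and Apoh, but 0.048 for Apoc2 and Apoh.

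**Figure D4:**
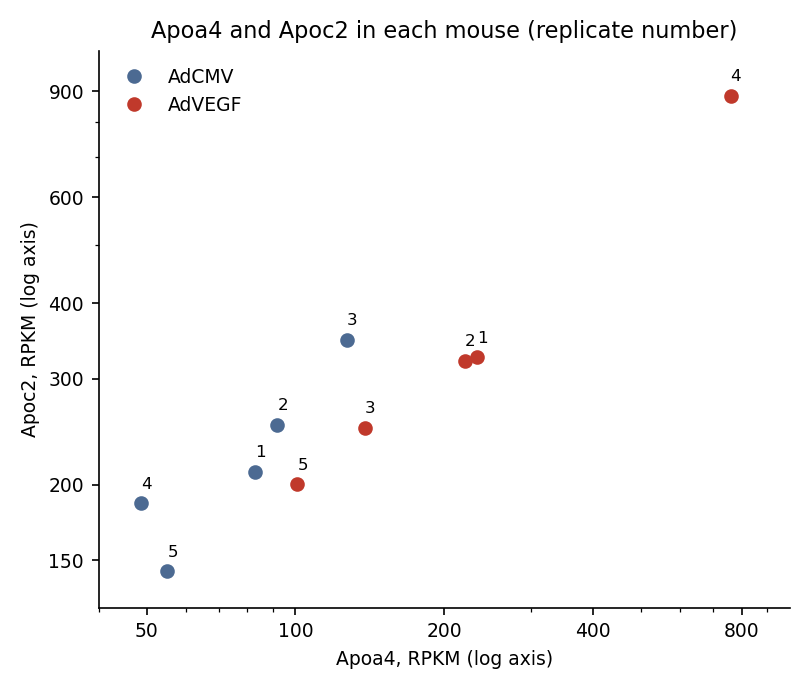
Deposited RPKM of Apoa4 and Apoc2 (log axes) in each liver, numbered by replicate. AdVEGF replicate 4 stands apart from the rest at 759 and 884 RPKM, and within each group the mice with more Apoa4 tend to have more Apoc2.

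Over all 10 mice, Apoa4 had the largest and Apoh the smallest spread of the 10 genes, with standard deviations of 0.97 and 0.28 on the log2 scale after median-ratio scaling. Among 13923 other genes tested, those most like Apoa4 by Pearson's r over the 10 mice were Btf3 (0.96), Eef1g (0.946) and Cby1 (0.941). Those most like Apoh were Ogfod2 (0.926), Oaz1-ps (0.912) and Frat1 (0.91). The 10 points share their libraries and hold both groups, and the highest of so many correlations are given as a description.

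Of the 17 rows within 50 kb of an apolipoprotein, 16 were tested and 2 were called. Adamts4 near Apoa2 had a log2FC of 2.09 (adjusted p = 0.00137, limma) from a low level of 0.37 ± 0.278 RPKM to 1.67 ± 0.487 RPKM, and Pvrl2 near Apoe had one of 1.14 (adjusted p = 0.00164), which fell short of the fold threshold after median-ratio scaling (0.75). Around the chromosome 9 cluster, Sik3 had a log2FC of 0.48 (adjusted p = 0.125), Zpr1 of 0.67 (adjusted p = 0.0198) and Bud13 of 0.45 (adjusted p = 0.282), all below each of the 4 apolipoproteins between them. In the chromosome 7 cluster Apoc4, a further apolipoprotein, was at 712 ± 126 RPKM in AdCMV and 1246 ± 214 RPKM in AdVEGF livers with no overlap, a log2FC of 0.81 (adjusted p = 0.0143, limma) that missed the fold threshold. Next to it, Tomm40 and Clptm1 had log2FC values of -0.04 and 0.38 and did not pass the test. After median-ratio scaling the log2FC of Tomm40 was -0.44 with an adjusted p of 0.0423, below the fold threshold, and that of Apoc4 was 0.40 with an adjusted p of 0.314. Zpr1 was at 0.27 (adjusted p = 0.0974) on that scale. Whether reads were counted by strand is not given in the sources used here, so reads of transcripts that overlap on opposite strands cannot be told apart.

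Of 114 other genes of lipoprotein metabolism, 108 were tested, and 11 (10.2%) were called higher and 5 (4.63%) lower, beside 13.0% and 1.54% of all rows. After median-ratio scaling the counts were 7 (6.48%) higher and 6 (5.56%) lower, beside 7.77% and 3.14% of all rows. The list of other apolipoproteins was drawn up by gene name and also holds genes such as Apobr, a receptor. Among its 15 genes tested, 0 were called higher and 4 lower. All 4 were genes of the Apol family, which is related to a trypanosome lytic factor and of less certain function in mice. Apol9a fell from 83.1 ± 11.8 to 32.5 ± 11.8 RPKM and Apol9b from 88.9 ± 13.0 to 38.9 ± 15.6 RPKM, by 1.42 and 1.28 on the log2 scale (adjusted p = 0.000311 and 0.00141, limma). Neither gene overlapped between the groups, and reads of such close paralogs are hard to assign. Apol10a and Apol10b fell from 2.26 ± 1.12 to 0.123 ± 0.101 RPKM and from 2.74 ± 0.565 to 0.339 ± 0.0908 RPKM, at few reads in the AdVEGF libraries, and median-ratio scaling left all 4 called. Apom, a carrier of sphingosine 1-phosphate on HDL, was at 212 ± 43.0 and 335 ± 59.1 RPKM with a log2FC of 0.66 (adjusted p = 0.0266), below the fold threshold, and 0.26 (adjusted p = 0.437) after median-ratio scaling.

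Of the 17 genes of lipoprotein assembly and secretion tested, 0 were called on either scale, and the median log2FC was 0.04, below the 0.38 of all genes. Without the fold threshold and after median-ratio scaling, 7 of these 17 were lower at an adjusted p under 0.05, as were 10.3% of all rows. The most abundant were P4hb, a subunit of the Mttp complex, and the lipid droplet protein Plin2, with log2FC values of 0.18 (adjusted p = 0.542) and 0.30 (adjusted p = 0.429). Both changed sign after median-ratio scaling, to -0.23 and -0.11.

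Of 12 genes of HDL formation and remodelling, Abcg1, a cholesterol exporter, rose from 2.96 ± 1.39 to 8.7 ± 0.708 RPKM (log2FC 1.64, adjusted p = 0.000243, limma). Saa4, an apolipoprotein of HDL, fell from 93.7 ± 15.5 to 45.2 ± 23.6 RPKM (log2FC -1.16, adjusted p = 0.00386). Lipg, the endothelial lipase that acts on HDL phospholipid, was called lower only after median-ratio scaling (-1.09, adjusted p = 0.00561, against -0.72 with an adjusted p of 0.0902 as deposited). Abca1, which passes cholesterol to Apoa1, had a log2FC of -0.08 (adjusted p = 0.81) as deposited and -0.48 (adjusted p = 0.0222) after median-ratio scaling, below the fold threshold. Scarb1, the HDL receptor of hepatocytes and endothelium, had no overlap between groups and a log2FC of 0.87 (adjusted p = 0.00343), also below the threshold. Pon1, an antioxidant enzyme carried on HDL, had a log2FC of -0.12 (adjusted p = 0.707).

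Of 9 lipases and their inhibitors, only Gpihbp1, the endothelial anchor of lipoprotein lipase, was called. It rose from 17.1 ± 2.1 to 133 ± 23.6 RPKM (log2FC 2.94, adjusted p = 1.79e-08, limma) and also after median-ratio scaling (2.54). Lpl, the lipase on which Apoc2, Apoc3 and Apoa5 act, had log2FC values of 0.15 (adjusted p = 0.635) as deposited and -0.25 (adjusted p = 0.194) after median-ratio scaling. Of 14 receptors and clearance genes, Stab1 (1.75), Stab2 (1.91) and Cd36 (1.46) were called higher on both scales, of which Stab2 is also on the list of endothelial markers, all of which rose. Lsr, a lipoprotein receptor of hepatocytes, had log2FC values of 0.27 (adjusted p = 0.311) as deposited and -0.13 (adjusted p = 0.548) after median-ratio scaling.

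Among 26 regulators of apolipoprotein genes, Nr2f1 and Nr2f2, nuclear receptors that bind direct repeats such as DR1, rose with log2FC values of 1.99 and 1.10 (adjusted p = 0.000228 and 0.00297, limma). Nr2f2 fell below the fold threshold after median-ratio scaling (0.70). All 13 endothelial markers and 7 of 8 stellate cell markers also rose, and in which cells Nr2f1 and Nr2f2 rose was not tested. Hnf4a, the nuclear receptor that many apolipoprotein genes depend on in hepatocytes, was at 62.7 ± 21.3 RPKM in AdCMV and 53.8 ± 5.6 RPKM in AdVEGF livers, with log2FC values of -0.16 (adjusted p = 0.603) as deposited and -0.56 (adjusted p = 0.0185) after median-ratio scaling. Creb3l3, a liver activator of Apoa4, Apoa5 and Apoc2, was at 75.9 to 100 RPKM in AdCMV and 65.9 to 145 RPKM in AdVEGF livers, with log2FC values of 0.13 (adjusted p = 0.665) and -0.27 (adjusted p = 0.369).

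Of 15 other secreted plasma proteins of hepatocytes, 4 were called higher: albumin (Alb, log2FC 1.14), transferrin (Trf, 1.00), fetuin A (Ahsg, 1.67) and kininogen (Kng1, 1.11), with adjusted p of 0.00768, 0.0174, 0.00012 and 0.00129 (limma). The median of the 15 was 0.71 as deposited and 0.30 after median-ratio scaling, against 0.62 and 0.22 for the 10 apolipoproteins. On the second scale only Ahsg was called (1.27, adjusted p = 0.00951), as was Apoa5 among the apolipoproteins. Serpina1a, the most abundant of the list after Alb and one of a set of near-identical genes, had a log2FC of 0.20 (adjusted p = 0.596).

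**Figure D5:**
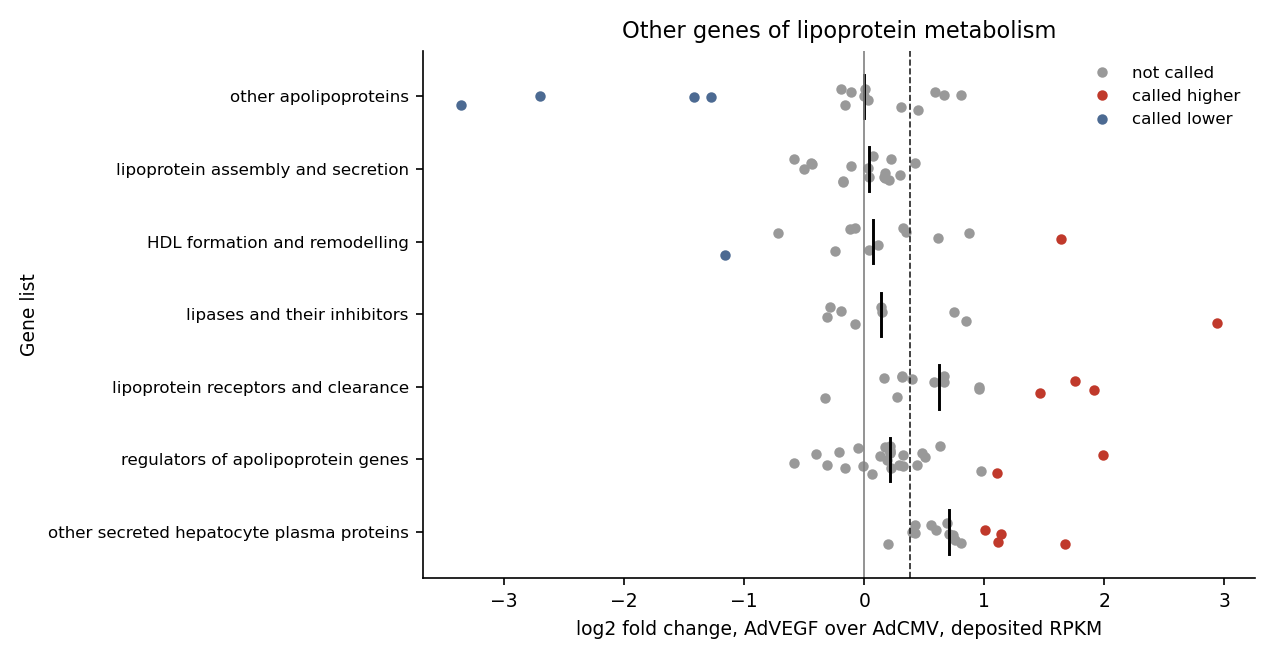
Log2 fold change, AdVEGF over AdCMV, of the tested genes of 7 lists around the apolipoproteins (deposited RPKM, each point a gene, black bars the median of a list, dashed line the median of all genes at 0.38). The list of other apolipoproteins, drawn up by gene name, includes 4 genes called lower, and the secreted plasma proteins lie highest, with a median of 0.71.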

How the data were processed

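RNA-Seq libraries of 5 AdVEGF and 5 AdCMV livers were used, grouped by their labels. The authors mapped the reads with TopHat, and HOMER and mm9 are named in the submitters' processing notes; the authors deposited RPKM values for 24016 transcripts, normalized to the uniquely mapped tags of each library. The deposited table further holds, for each transcript, the log2 ratio between groups and the FDR that the authors computed; the test behind them is not given in the sources used here, and both columns were left aside. Reads per row were recovered from the RPKM steps (99.87% to 99.99% of values within 0.02 of a whole number).

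The main test was limma 3.58.1 (R 4.3.3; lmFit, eBayes with trend) on log2(RPKM + 0.1) over rows whose mean exceeded 0.5 RPKM in either group, adjusted by Benjamini-Hochberg over all 13933 rows. The thresholds are those of the study's methods; the test they belong to is not given in the sources used here. RPKM is a share of the library, so a fall of abundant transcripts raises all others; median-ratio, upper quartile and Mup-free totals were therefore tried, besides other pseudocounts (1, 0.01), filters (none, over 1 RPKM), treat, voom on recovered reads, a replicate block and leaving out each mouse. Leaving out each mouse together with median-ratio scaling was added after the data had been seen, as was the doubled one-sided p for the ratios. The test was also run on simulated reads with the same group sizes and library totals. It recovered 90.7% of 107 genes changed by 1.5 and 98.9% of 93 changed by 2 on the log2 scale. There were 11 false calls among 13624 rows. The simulation used 1 setting of spread for all genes and held no shift between the groups such as that of the Mup genes. False calls under such a shift were therefore not tested.

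The apolipoproteins and gene lists were chosen with earlier results of these data known. Named beyond the members are, for each list, called genes and the 2 most abundant, rows within 50 kb of a member, and the 3 genes most like the members of largest and smallest spread; Mttp, Apobec1, Abca1, Scarb1 and Lpl were named for their role, and Lipg and Tdo2 as called after median-ratio scaling, after their values were seen. Some genes of the lists entered the counts but are not reported here by name. The 5 rows with no symbol held at most 0.00534% of the reads of a library and were left out. Summed reads exceeded the mapped tags by 2.31% to 13.9%, so some reads count on more than 1 row. The chi-square per degree of freedom between libraries of a group was at least 12.4, so none was a repeat of another. Single ratios were tested in Python 3.11.15. Promoter windows came from RefSeq (GRCm38.p6), and no coordinate was carried between builds.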

Additional observations from a re-analysis of the deposited data

Results flagged for a closer look

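Of 110 groups of 5 mice examined, 15 held a liver far from the other 4 (gap over range above 0.71, Dixon's 95% limit for 5 samples), where chance flags about 1 in 20 groups. Of these 15, 8 were in AdVEGF replicate 4.

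Among the apolipoproteins, Apoa4 (759 RPKM, others 101 to 234) and Apoc2 (884 RPKM, others 200 to 326) were high in AdVEGF replicate 4, and so were the ratios Apoa4/Apoa1 (0.187) and Apoc2/Apoe (0.109). Apoa1 was low in AdCMV replicate 3 (1502 RPKM, others 2038 to 2174).

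Of the other genes, AdVEGF replicate 4 was high for P4hb (339 RPKM, others 210 to 238), Saa4 (86.3 RPKM, others 29.6 to 43.2), Trf (7188 RPKM, others 3215 to 4065) and Kng1 (787 RPKM, others 489 to 571). In the other AdVEGF livers, Apol10b was low in replicate 1 (0.18 RPKM), Serpina1a high in replicate 3 (7703 RPKM) and Lsr low in replicate 5 (60.1 RPKM). In the controls, Apom was high in replicate 2 (287 RPKM), Cd36 in replicate 3 (96.5 RPKM) and Trf in replicate 5 (3473 RPKM).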

How the results depend on the processing

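The 3 calls among the apolipoproteins depended on the scaling between libraries. The count higher was 1 under median-ratio, upper quartile and Mup-free scaling and under the replicate block with median-ratio scaling, 0 with treat, 3 to 4 with each mouse left out, and 1 to 2 with each mouse left out after median-ratio scaling, where Apoa4 was also called without AdVEGF replicate 5. Voom on recovered reads with median-ratio scaling called 2, Apoa4 and Apoa5. The count lower was 0 throughout. Genes of the lists called higher numbered 7 instead of 11 under the 3 scalings, under voom and the block with median-ratio scaling, and 2 with treat, where 2 instead of 5 were lower. The summed share of the apolipoproteins in the library total differed by 0.815 percentage points, and by 0.188 in the summed reads without the Mup genes. The adjusted p of the Apoa2/Apoa1 (-1.27) and Apoa1/Apob (1.28) ratios was 0.219 in the sign-flip test of the replicate block, whose smallest raw p is 0.0625. With a mouse left out, Apoa2/Apoa1 ranged from -1.36 to -1.16, Apoa1/Apob from 1.09 to 1.44, Apoa4/Apoa1 from -0.11 to 0.65 and Apoc2/Apoe from -0.27 to 0.31. Whether the replicate numbers mark pairs cannot be told from the values at hand. Deviations of same-numbered livers correlated at 0.0094 to 0.294, and 3 of 5 AdCMV livers correlated best with the AdVEGF liver of their own number. The block without rescaling left the count of called apolipoproteins at 3.

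Log2 fold changes that changed sign under median-ratio, upper quartile, Mup-free, voom with median-ratio and block with median-ratio scaling were, in that order, Apoh (-0.26, -0.22, -0.27, -0.26, -0.26), Creb3l3 (-0.27, -0.23, -0.28, -0.28, -0.27), Lpl (-0.25, -0.21, -0.26, -0.25, -0.25), Lsr (-0.13, -0.085, -0.14, -0.13, -0.13), P4hb (-0.23, -0.18, -0.24, -0.24, -0.23), Plin2 (-0.11, -0.062, -0.12, -0.081, -0.11) and Serpina1a (-0.20, -0.16, -0.22, -0.19, -0.20). With a mouse left out, Apoa2 ranged from -0.20 to 0.041, Apob from -0.23 to 0.021, Pon1 from -0.23 to 0.024, Abca1 from -0.19 to 0.052 and Creb3l3 from -0.011 to 0.27. After median-ratio scaling with a mouse left out, Apoc1 was -0.16 without AdCMV replicate 3, -0.097 without AdCMV replicate 5 and -0.028 without AdVEGF replicate 1, Apoc2 -0.086 without AdVEGF replicate 4 and Apoe -0.015 without AdCMV replicate 3, all of the other sign, and Apoh ranged from -0.40 to -0.19, with -0.30 and -0.29 without replicate 5 of either group.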
